A study of Mus musculus with 48 samples.

Results

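Dermal monocytes were isolated from the ears of mice with a cell sorter as CD11b+ CD64low CCR2+ Ly-6Chi MHCIIlow cells, and their RNA was hybridised to Affymetrix mouse gene arrays. This account covers the 6 of 48 arrays of the series that carry these cells: 3 from skin at day 5 of imiquimod treatment and 3 from untreated skin, selected by the source name of each sample and not by any measured value. Per the labels, the mice were 8 to 11 weeks old and received 5% imiquimod cream (7 mg imiquimod per ear side) each day in a course planned for 14 days, and the day 5 cells were collected within that course. Strain and sex are not given in the labels, and no vehicle cream group is named, so day 5 is compared with untreated skin. The same series holds, from both conditions, monocyte-derived dendritic cells (moDC), Langerhans cells of the epidermis and MHCIIlow dermal macrophages, 6 arrays each. It also holds dendritic cells with CD11b (CD11b DC) from both, again 6 arrays. These populations serve to show where the monocyte response differs. All 48 arrays of the series were fitted together, so the other arrays also enter the spread behind each monocyte p-value. Whether each of the 3 samples in a group is a separate mouse is not stated, and the p-values therefore rest on a sample-to-sample spread that may be technical.

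Monocytes with high Ly-6C leave the bone marrow through the chemokine receptor CCR2, circulate briefly and enter tissue, where they can turn into dendritic cells or macrophages. Imiquimod is an agonist of Toll-like receptor 7, an endosomal receptor for single-stranded RNA, and repeated application to mouse skin produces a thickened, scaly, neutrophil-rich inflammation used as a model of psoriasis. In inflamed tissue, monocytes are known for secreting cytokines and chemokines, for antimicrobial proteins such as the S100A8 and S100A9 pair, and for Fc receptors that bind antibody-coated particles.

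Across 15591 genes, 1986 (12.7%) differed between day 5 and untreated monocytes at an adjusted p under 0.05 in limma, a linear model fitted to all genes with Benjamini-Hochberg adjustment over all of them. Of these, 1002 (6.43%) were higher at day 5 and 984 (6.31%) were lower, and 796 (5.11%) changed at least 2-fold, 381 (2.44%) up and 415 (2.66%) down. The split of 50.5% higher calls depended on scaling: it was 64.1% after a further quantile normalisation and 66.7% after centring each array on its median. When only the 6 monocyte arrays were fitted, 277 genes passed. The largest rises included antimicrobial and acute phase genes, while several genes of respiratory chain subunits and of the immunoproteasome rose by smaller amounts. Among the genes that fell were the integrin chains Itga4 and Itga5 and the endoplasmic reticulum chaperone Hspa5. The cholesterol transporter Abca1, the lipase Lpl and the enzyme genes Hmox1 and Gclc fell too. Their lists moved in both directions: 3 of 22 lipid handling genes fell and 1 rose, and 3 of 21 redox genes fell and 5 rose. Values below are log2 expression on the scale of the deposited arrays, given for day 5 replicates 2, 3 and 4 and then for untreated replicates 1, 2 and 4 (the numbers are those in the sample titles). Each change is the difference of the group means with its moderated standard error (SE). The SE draws on the spread within groups over all 48 arrays, so it need not match the scatter of the 6 values printed. Counts given for gene lists in monocytes stand beside the shares of 6.43% higher and 6.31% lower over all genes.

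Promoters are shown for 5 genes that rose, chosen after their values were seen because their upstream sequence held a recognisable immune motif, to show that motif in place. The promoters of S100a8, S100a9, Stfa3, Lcn2 and Ifitm1, which had larger rises than all of these but Saa3, held neither motif in the same window. Each is the 250 bases before the RefSeq transcript start (mouse build GRCm38.p6), 5′ to 3′ on the strand of the gene, with the matched letters in capitals. For Saa3 (chr7:46715677-46715926, minus strand), Fcgr4 (chr1:171018676-171018925, plus strand), Cxcl10 (chr5:92348890-92349139, minus strand) and Gbp3 (chr3:142559794-142560043, plus strand), the capitals mark the interferon-stimulated response element, searched as a pair of GAAA blocks with any 2 bases between them on either strand. Gbp3 held 2 overlapping matches on the opposite strand. Of the 2 RefSeq promoters of Gbp3, only the 1 shown held this element. For Cxcl3 (chr5:90785851-90786100, plus strand), they mark the NF-kB motif, searched as GGGA, any base, then TTTCC.
Saa3: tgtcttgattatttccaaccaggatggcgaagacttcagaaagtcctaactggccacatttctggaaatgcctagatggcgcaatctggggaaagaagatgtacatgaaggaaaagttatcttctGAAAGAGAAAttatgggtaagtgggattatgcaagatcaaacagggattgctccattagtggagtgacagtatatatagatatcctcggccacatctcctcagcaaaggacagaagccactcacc
Fcgr4: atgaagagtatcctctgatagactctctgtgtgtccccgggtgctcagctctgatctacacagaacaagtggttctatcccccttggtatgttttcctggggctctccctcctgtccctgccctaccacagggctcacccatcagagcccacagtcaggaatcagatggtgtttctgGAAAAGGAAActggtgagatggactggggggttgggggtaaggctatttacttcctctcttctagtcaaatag
Cxcl10: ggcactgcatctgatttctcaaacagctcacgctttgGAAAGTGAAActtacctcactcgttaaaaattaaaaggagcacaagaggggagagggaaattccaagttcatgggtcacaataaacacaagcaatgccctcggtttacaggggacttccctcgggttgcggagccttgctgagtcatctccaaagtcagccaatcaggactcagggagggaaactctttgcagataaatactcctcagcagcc
Gbp3: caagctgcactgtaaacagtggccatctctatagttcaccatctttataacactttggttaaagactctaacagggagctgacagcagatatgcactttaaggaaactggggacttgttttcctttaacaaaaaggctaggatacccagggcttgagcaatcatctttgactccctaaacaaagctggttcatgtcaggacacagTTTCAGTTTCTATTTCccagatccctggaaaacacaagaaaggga
Cxcl3: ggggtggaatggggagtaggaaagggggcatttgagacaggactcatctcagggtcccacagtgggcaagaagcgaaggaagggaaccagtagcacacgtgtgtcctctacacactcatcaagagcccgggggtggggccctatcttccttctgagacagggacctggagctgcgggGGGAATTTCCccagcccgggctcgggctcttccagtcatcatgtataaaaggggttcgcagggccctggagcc

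The response element began 125 bases before the start of Saa3, 73 before Fcgr4 and 213 before Cxcl10, and the NF-kB motif lay 73 bases before Cxcl3. Matched on both strands, the response element was held by 4.26% of the 962 promoters of genes that rose, by 1.6% of the 1001 promoters of genes that fell, by 2.66% of the promoters of all genes tested and by 2.98% of all 32851 RefSeq promoters. The NF-kB motif was held by 0.208% of promoters of genes that rose and 0.4% of those of genes that fell, against 0.43% of the promoters of all genes tested and 0.356% of all RefSeq promoters. A match is a run of letters and not a measured binding site.

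All 6 arrays were similar in overall signal, with medians of log2 4.20 to 4.25 at day 5 and 4.25 to 4.37 in untreated samples. The day 5 arrays correlated with each other at 0.963 to 0.979, and the untreated arrays at 0.926 to 0.954. Untreated replicates 1 and 2 correlated best with untreated moDC arrays (0.958 and 0.947), not with their own group. Untreated replicate 2 also stood apart in fibroblast genes. Without both replicates that matched moDC best, 1313 genes passed the test; here and wherever both are left out, untreated replicate 4 is the only untreated array and is assumed to vary as the other groups do. Leaving out any single array gave between 1196 (without day 5 replicate 3) and 1917. All untreated dermal samples carry the letter B in their titles and all day 5 dermal samples the letter F, a letter whose meaning the labels do not give, so what it stands for and the treatment cannot be told apart. Langerhans cells carry F in both conditions.

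Genes of the sort label were read on the same arrays. All 21 measured genes of the Ly6C-high monocyte signature lay above the detection threshold (log2 3.77) on every array. Of the 15591 genes tested, 13612 to 13884 did so on the day 5 arrays and 13173 to 13963 on the untreated ones. The summed level of the signature in linear units was 37750 to 42080 at day 5 against 32400 to 36580 in untreated samples. Ccr2 stood between log2 9.99 and 10.40 in day 5 monocytes, against 10.11, 9.81 and 9.92 in untreated monocytes. Itgam, which encodes CD11b, was at 10.47, 10.27 and 10.50, against 10.38, 10.14 and 9.74. Neither passed the test. Ly6c2 shares its probe set with a near-identical gene and was not read. MHC class II, which the sort held at a low surface level, was detected as RNA. Over the 6 arrays H2-Aa lay at 9.71 to 10.70 and Cd74 at 11.07 to 11.72. Fcgr1, which encodes the CD64 that the sort held at a low surface level, rose: it was at 9.42, 9.18 and 9.15 at day 5, against 7.90, 7.58 and 8.31 in untreated cells (log2 change 1.32 ± 0.33 (SE), adjusted p = 0.00652). Without both untreated replicates that matched moDC best, its change was 0.94 and did not pass.

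**Figure D1:**
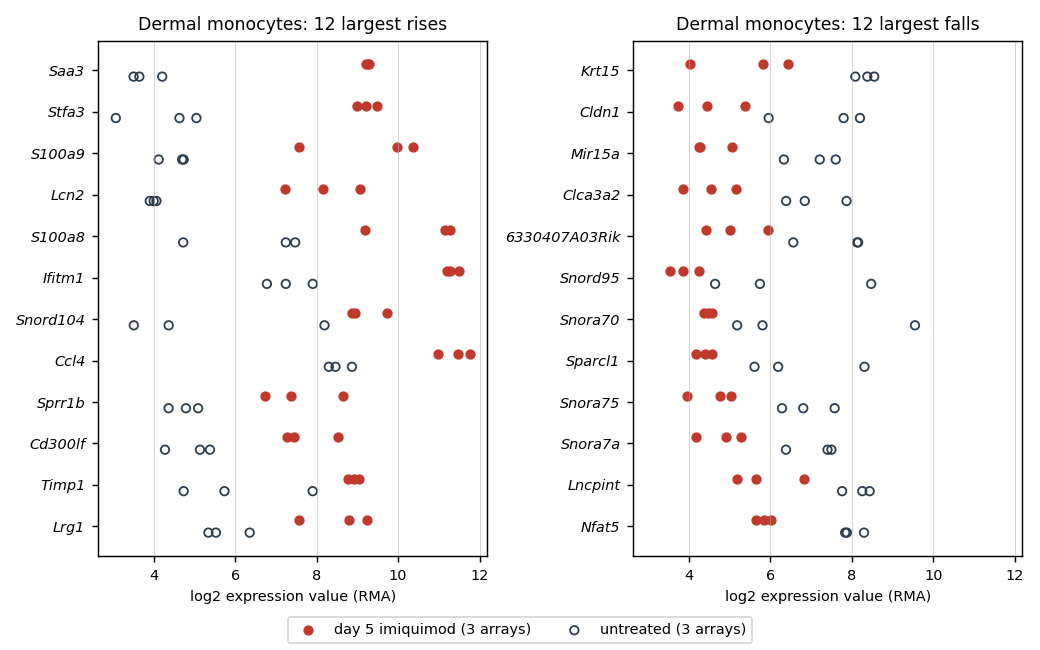
Log2 expression value (horizontal axis, 1 point per array) of the 12 genes with the largest rises and the 12 with the largest falls whose groups do not overlap, with day 5 as filled red points and untreated as open points (3 arrays each). Saa3 lies near 9 on every day 5 array and near 4 on every untreated array, while S100a9, S100a8 and Lcn2 spread more widely at day 5.

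The largest change of all was in Saa3, which encodes an acute phase apolipoprotein made by myeloid and epithelial cells. It measured log2 9.27, 9.29 and 9.21 in day 5 monocytes, against 3.64, 4.20 and 3.50 in untreated monocytes, where it sat about the detection threshold. All day 5 arrays lay far above all untreated ones, and the fitted change was 5.48 ± 0.63 (SE; adjusted p = 4.25e-07). With the 2 untreated values under the threshold set to it, Saa3 was at least 40.6-fold higher at day 5. Stfa3, a member of the stefin family of cathepsin inhibitors, reached 9.47, 9.21 and 8.99 at day 5, against 5.04, 4.63 and 3.06 (change 4.98 ± 0.55, adjusted p = 2.76e-07). Stefin genes have close copies, and cross-hybridisation of this probe set was not tested. S100a9 and S100a8 encode the subunits of calprotectin, a metal-binding antimicrobial protein. S100a9 was at 10.36, 9.96 and 7.57 at day 5, against 4.69, 4.12 and 4.73 (change 4.78 ± 0.43, adjusted p = 4.58e-09). S100a8 was at 11.15, 11.28 and 9.18 at day 5, against 7.24, 7.47 and 4.72 (change 4.06 ± 0.77, adjusted p = 0.000506). Lcn2, whose product lipocalin 2 binds bacterial iron carriers, was at 9.05, 8.15 and 7.23 at day 5 and at 3.99, 4.06 and 3.90 in untreated cells (change 4.16 ± 0.49, adjusted p = 5.65e-07). For each of these genes the groups stayed apart, and the call held when any single array was left out.

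Of the 19 measured alarmins, acute phase proteins and stefins, 7 rose and 1 fell, and the median change of the list was 0.19 against 0.0032 for all genes tested. Wfdc21, a whey acidic protein with antimicrobial relatives, rose by 2.59 ± 0.43 (adjusted p = 0.000101), with 7.49, 8.06 and 5.62 at day 5 against 4.13, 4.65 and 4.62 in untreated cells. The other rise in the list was Slpi, a secreted protease inhibitor (change 1.14 ± 0.30, adjusted p = 0.0112; not without untreated replicate 4, change 0.76). The fall was Orm2, an acute phase glycoprotein near the detection threshold (change -0.89 ± 0.30, adjusted p = 0.0431), which passed in 1 of the 6 refits that each left out 1 array, with changes of -1.21 to -0.52. Slpi and Orm2 were chosen after their values were seen. Day 5 replicate 4 was clearly the lowest day 5 array for S100a8, S100a9, Lcn2 and Wfdc21, while its Saa3 value of 9.21 was close to the other two. The same array had the lowest summed level of the 26 keratinocyte markers, 1308 in linear units, against 5134 and 4329 on day 5 replicates 2 and 3. The part of keratinocyte RNA in these 4 genes was not tested.

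Ifitm1, a membrane protein induced by interferon and carried by activated myeloid cells, rose 16.2-fold. It measured 11.26, 11.50 and 11.20 in day 5 monocytes, against 7.90, 7.24 and 6.77 in untreated monocytes (change 4.02 ± 0.49, adjusted p = 1.20e-06). In the broader interferon-stimulated list 3 of 30 genes rose, none fell, and the median change was 0.19. Those 3 were Oas1a, Cxcl10 and Usp18. Oas1a, an enzyme that senses double-stranded RNA, was at 8.69, 9.12 and 9.29 at day 5, against 7.16, 7.23 and 7.65 (change 1.69 ± 0.31, adjusted p = 0.000430). Usp18, which dampens interferon receptor signalling, was low on every array, at 5.49, 5.35 and 5.25 against 4.50, 4.30 and 4.16 (change 1.04 ± 0.30, adjusted p = 0.0181; lost without day 5 replicate 2 or 3 or untreated replicate 4, lowest change 0.96). Irf7, the transcription factor that amplifies type I interferon, was at 8.39, 8.69 and 9.70 at day 5 and at 8.68, 8.02 and 7.45 in untreated cells, so the groups overlapped and it did not pass (adjusted p = 0.213). Of 15 interferon-gamma and guanylate-binding protein genes, 4 rose and none fell. Gbp3 was at 7.04, 6.97 and 7.56, against 5.59, 5.87 and 5.67 (change 1.48 ± 0.35, adjusted p = 0.00445), and Cd274, which encodes the checkpoint ligand PD-L1, rose by 1.30 ± 0.39 (adjusted p = 0.0240; lost in 3 of the leave-outs, the refits with 1 array removed, lowest change 1.21). Without both untreated replicates closest to moDC, no gene of this list passed the test, the changes of Gbp3 and Cd274 then being 1.52 and 1.49.

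Of 29 measured chemokine genes, 5 rose and 1 fell, beside 6.43% and 6.31% of all genes, with a median change of 0.34. When only the monocyte arrays were fitted, 2 rose and none fell. Ccl4, a chemokine that draws in lymphocytes and monocytes, stood at 10.98, 11.46 and 11.76 at day 5, against 8.30, 8.86 and 8.46 in untreated cells. That is 7.26-fold (change 2.86 ± 0.43, adjusted p = 3.21e-05), with a gap of more than 2 log2 units between the groups. Cxcl3, a ligand of the neutrophil receptor CXCR2, was at 7.07, 8.05 and 8.03 at day 5, against 5.89, 5.89 and 6.23 (change 1.72 ± 0.33, adjusted p = 0.000704). Cxcl5, another ligand of that receptor, was near the detection threshold on every array and rose by 0.73 ± 0.19 (adjusted p = 0.00725), though not without day 5 replicate 4 (change 0.55). Ccl5 rose by 1.94 ± 0.52 (adjusted p = 0.0118), with 8.00, 9.42 and 9.44 against 6.64, 7.68 and 6.71. Its call was lost without day 5 replicate 3 or 4, the change staying at 1.7 or more. Cxcl10, a ligand of CXCR3, was at 9.14, 10.05 and 9.92, against 8.09, 9.32 and 7.14, and the groups overlapped (change 1.52 ± 0.50, adjusted p = 0.0384; lost without day 5 replicate 3 or 4 or untreated replicate 1 or 4, where it ranged down to 1.00). Ccl7, a CCR2 ligand, fell by 1.42 on the log2 scale (adjusted p = 0.0256), with 8.19, 8.16 and 7.24 at day 5 and 7.77, 10.52 and 9.55 in untreated cells. The untreated array with the highest Ccl7, replicate 2, also had the highest fibroblast level, and without it the change was -0.80 and did not pass. The call was also lost without day 5 replicate 4 or untreated replicate 4 (changes -1.11 and -1.28). Ccl2, the main CCR2 ligand, was at 10.55, 10.63 and 10.47 against 9.38, 10.47 and 9.76 and did not pass (adjusted p = 0.185).

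Among inflammatory cytokines and inflammasome genes, 4 of 27 rose and none fell (median change 0.14). Osm encodes oncostatin M, a cytokine of the interleukin 6 family that acts on keratinocytes and fibroblasts. It was at 10.28, 10.55 and 10.87 in day 5 monocytes, against 9.14, 8.18 and 8.47 in untreated monocytes (change 1.97 ± 0.35, adjusted p = 0.000243), and the groups did not overlap. Pycard, the ASC adaptor of inflammasomes, rose by 1.26 ± 0.19 (adjusted p = 2.37e-05), with 10.22, 10.21 and 9.54 against 8.79, 8.72 and 8.66. Gsdmd, whose product forms the pore of pyroptosis, rose by 0.88 ± 0.25 (adjusted p = 0.0168), and Tnfsf14, the cytokine LIGHT, by 1.17 ± 0.34 (adjusted p = 0.0198). Gsdmd was not called without day 5 replicate 4 or untreated replicate 4, nor Tnfsf14 without day 5 replicate 3 or 4 or untreated replicate 2; their changes then stayed at 0.63 and 0.92 or more. The classical cytokines of this model did not pass. Il1b was at 11.96, 11.76 and 12.11 at day 5, against 11.24, 10.96 and 10.81, without overlap but with a change of 0.94 ± 0.48 (adjusted p = 0.207). Tnf was at 10.16, 10.45 and 10.20 against 10.36, 10.48 and 10.14, and Il6 at 9.28, 9.08 and 8.68 against 7.75, 8.96 and 7.85. Il23a and Il12b, which encode subunits of interleukin 23, lay between 3.70 and 4.56 on all 6 arrays, close to the detection threshold. Arg1 and Nos2, markers often used for macrophage polarisation, were also low; Nos2 passed the test at 4.24, 4.56 and 4.36 against 3.90, 3.98 and 4.01 (change 0.42 ± 0.11, adjusted p = 0.0121; not without day 5 replicate 3, change 0.33).

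Receptors for antibody and for microbial sugars come next. Fcgr4, an activating receptor for IgG, was at 7.83, 8.43 and 8.28 at day 5, against 6.99, 6.32 and 4.27 in untreated cells (change 2.32 ± 0.41, adjusted p = 0.000238). With Fcgr1 above, 2 of 8 Fc receptor genes rose and none fell. Of 24 C-type lectin receptor genes, 3 rose and none fell. Clec4n encodes Dectin-2, a receptor for fungal mannan, and was at 8.84, 8.83 and 8.20, against 6.94, 6.65 and 5.49 (change 2.27 ± 0.36, adjusted p = 6.84e-05). Clec4d, a receptor for mycobacterial glycolipid, rose by 0.95 ± 0.25 (adjusted p = 0.0101) and Mrc1, the mannose receptor, by 1.04 ± 0.30 (adjusted p = 0.0199). Without untreated replicate 2, whose Clec4d and Mrc1 values of 8.71 and 7.47 were the lowest of the 6, neither passed and the changes were 0.80 and 0.79. Mrc1 was also not called without day 5 replicate 2 or 4 (changes 1.02 and 0.99).

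Surface Toll-like receptor genes rose in 3 of 16 cases and fell in none. Tlr4, the receptor for lipopolysaccharide, was at 8.24, 7.95 and 8.28 in day 5 monocytes, against 7.29, 6.83 and 6.33 in untreated monocytes (change 1.34 ± 0.31, adjusted p = 0.00375). Tlr1 rose by 1.84 ± 0.58 (adjusted p = 0.0305), a call lost in 4 of the 6 leave-outs with changes of 1.47 to 2.09. In the endosomal receptor machinery, 1 of 18 genes rose and 2 fell (median -0.09). Tlr7, the receptor for imiquimod, stood at 7.34, 7.32 and 7.42 at day 5, against 8.35, 7.36 and 6.82 in untreated cells, and did not pass (change -0.15 ± 0.38, adjusted p = 0.851). The untreated arrays spread on both sides of the day 5 values. Irak2, a kinase below these receptors, fell by 1.59 ± 0.32 (adjusted p = 0.00110), with 7.73, 7.58 and 7.21 at day 5 against 9.45, 8.92 and 8.93. Of 24 genes of the NF-kB pathway, Nfkbiz rose (change 0.80 ± 0.22, adjusted p = 0.0124; not without day 5 replicate 4, change 0.74) and Icam1 fell.

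Chemoattractant receptors rose in 4 of 17 cases and fell in none. C3ar1, the receptor for complement fragment C3a, was at 10.07, 10.02 and 10.33, against 9.14, 8.50 and 8.04 (change 1.58 ± 0.35, adjusted p = 0.00270). Ccr1 was at 8.12, 8.06 and 8.74, against 7.16, 6.82 and 6.83 (change 1.37 ± 0.31, adjusted p = 0.00312), and Ltb4r1, the leukotriene B4 receptor, rose by 1.33 ± 0.33 (adjusted p = 0.00564). In these 3 genes every day 5 array exceeded every untreated array, as in 13.5% of all genes tested. Cxcr2 was near or below the detection threshold, at 3.44, 4.16 and 3.41 against 2.81, 2.81 and 3.15 (change 0.75 ± 0.25, adjusted p = 0.0463; lost in 3 of 6 leave-outs, where the lowest change was 0.50). Complement genes rose in 3 of 19 cases. Cfb, a protease of the alternative pathway, was at 8.62, 8.90 and 9.29 at day 5, against 7.05, 8.00 and 7.19 (change 1.52 ± 0.29, adjusted p = 0.000603). Cfp, which encodes properdin, the stabiliser of that pathway, was at 10.19, 10.29 and 10.50, against 9.20, 9.24 and 9.09 (change 1.15 ± 0.18, adjusted p = 3.58e-05).

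Paired receptors, families whose members set activation thresholds in myeloid cells, rose in 6 of 26 cases and fell in 1. Cd300lf, an inhibitory receptor for phospholipids, was at 7.43, 7.26 and 8.52 in day 5 monocytes, against 5.13, 5.38 and 4.27 in untreated monocytes (change 2.81 ± 0.31, adjusted p = 3.05e-07). Cd300ld rose by 1.50 ± 0.27 (adjusted p = 0.000255) and Cd300e by 1.7 ± 0.43 (adjusted p = 0.00725; not without day 5 replicate 4, change 1.10). Siglece, an inhibitory sialic acid receptor, was at 8.65, 7.68 and 7.81, against 6.63, 6.84 and 6.09 (change 1.52 ± 0.41, adjusted p = 0.0112; not without day 5 replicate 2 or untreated replicate 4, lowest change 1.22). The Cd300 genes lie in a cluster of related copies, and cross-hybridisation was not tested. The fall was in Siglec1, a macrophage adhesion receptor chosen after its values were seen (change -0.91 ± 0.29, adjusted p = 0.0344); it passed in 1 of the 6 leave-outs, with changes of -1.06 to -0.72.

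Of 15 genes of MHC class I presentation and the immunoproteasome, 6 rose, none fell and 9 did not pass, with a median change of 0.38. The count of rises was 3 without untreated replicate 2, 3 without both untreated replicates closest to moDC and 3 when only the monocyte arrays were fitted. Psmb9, a catalytic subunit of the immunoproteasome that cuts peptides for MHC class I, was at 11.10, 10.86 and 11.35 at day 5, against 9.52, 9.08 and 9.19 in untreated cells (change 1.84 ± 0.19, adjusted p = 1.06e-07). Psmb10 was at 10.44, 10.39 and 10.29, against 9.20, 9.0 and 9.42 (change 1.17 ± 0.18, adjusted p = 4.05e-05). Psmb8 was at 9.97, 9.89 and 9.85, against 9.12, 9.02 and 8.94 (change 0.88 ± 0.11, adjusted p = 1.58e-06). For the 3 catalytic subunits every day 5 array lay above every untreated array, as in 13.5% of all genes tested. Each call held in all 6 leave-outs. Tap1, a subunit of the peptide transporter, rose by 0.68 ± 0.18 (adjusted p = 0.0107; not without untreated replicate 2, change 0.58).

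On the class II side, 4 of 17 genes rose and 2 fell. H2-Eb1 was at 9.27, 9.66 and 8.85 in day 5 monocytes, against 8.28, 8.53 and 8.39 in untreated monocytes (change 0.86 ± 0.15, adjusted p = 0.000164), and Ifi30, a lysosomal thiol reductase, rose by 0.77 ± 0.12 (adjusted p = 6.61e-05). H2-Ab1 rose by 0.66 ± 0.16 (adjusted p = 0.00573; not without untreated replicate 2, change 0.43), while H2-Aa was at 10.70, 10.50 and 9.91 against 10.60, 10.41 and 9.71 and did not pass. Cd74, the invariant chain, was lower at 11.34, 11.10 and 11.07 against 11.51, 11.72 and 11.45 (change -0.39 ± 0.11, adjusted p = 0.0190; lost in 3 leave-outs, without untreated replicate 2 at -0.31). Its call was also lost when arrays were centred on their medians. Cd86, a costimulatory ligand, fell by 0.65 on the log2 scale (adjusted p = 0.0398), a call lost in 4 of 6 leave-outs with changes of -0.79 to -0.52. In moDC, which share a monocyte origin, H2-Ab1 averaged 12.3 at day 5 and 12.3 untreated.

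**Figure D2:**
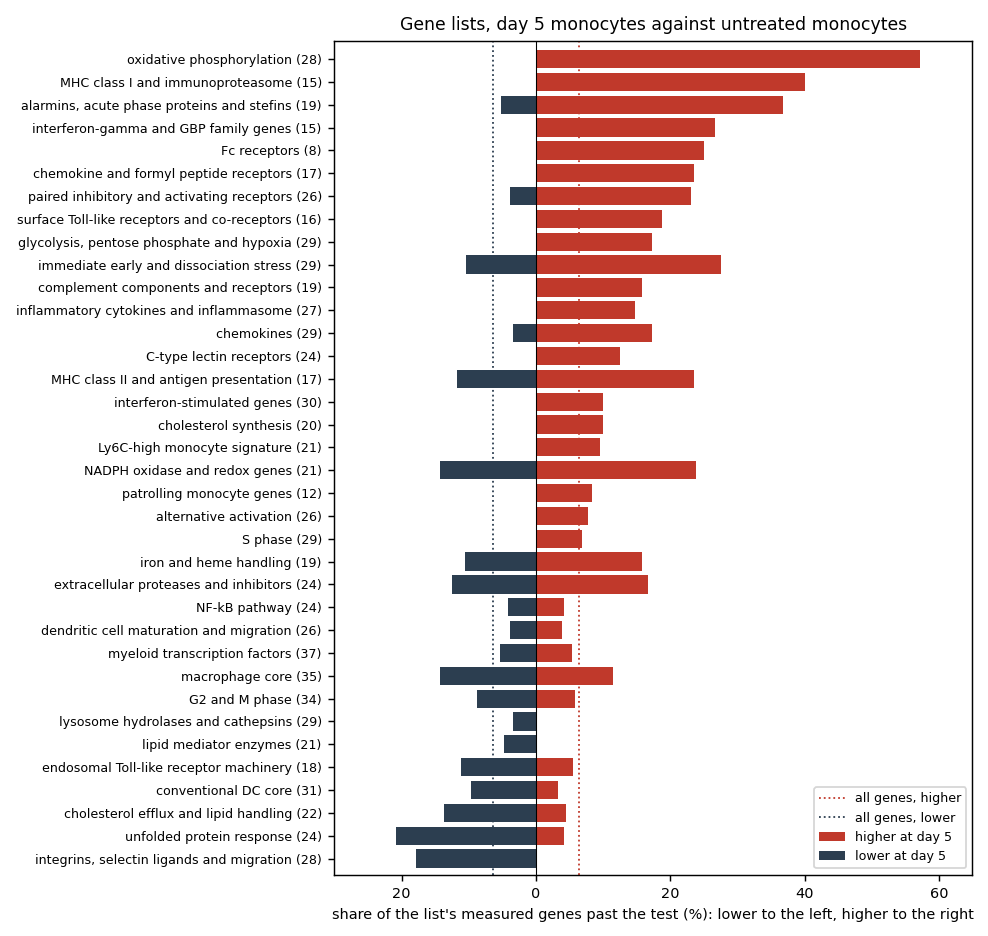
Share of each list's measured genes (number in brackets) that passed the test in day 5 against untreated monocytes (horizontal axis, %), higher to the right in red and lower to the left in dark blue. Dotted lines mark the shares over all genes, 6.43% higher and 6.31% lower. Oxidative phosphorylation has the longest bar, 16 of 28 genes higher.

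Respiratory chain genes had the highest share of rises of any list: 16 of 28 measured genes of oxidative phosphorylation rose, none fell, and the median change was 0.49. Ndufb8, a subunit of complex I, was at 10.21, 10.69 and 10.80 at day 5, against 9.62, 9.14 and 8.64 in untreated cells (change 1.43 ± 0.21, adjusted p = 1.72e-05). Cox5b, a subunit of cytochrome c oxidase, was at 11.20, 11.16 and 11.22, against 10.34, 10.43 and 9.86 (change 0.99 ± 0.12, adjusted p = 5.93e-07). Ndufb5, Ndufa1 and Ndufv1, further complex I subunits, rose by 1.18, 1.06 and 0.98 (adjusted p = 0.000245, 0.000306 and 0.00142). In 19 of the 28 genes all day 5 arrays lay above all untreated arrays, against 13.5% of all genes tested. The count was 12 without untreated replicate 2, 12 without both untreated replicates closest to moDC, 8 in the authors' shorter table and 1 when only the 6 monocyte arrays were fitted, where the spread rests on few arrays. In moDC 15 of the 28 genes rose, where 5.68% of all genes did, and in Langerhans cells 4 did, where 8.64% of all genes did.

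Changes ran with gene length on the genome. Genes were put into 5 bins of 3115 or 3116 by genomic span. In the bin of shortest genes (up to 5.74 kb), 11.1% were higher and 2.28% lower in day 5 monocytes, and in the bin of longest genes (from 60.7 kb) 2.76% were higher and 13.6% lower. The other dermal populations had the same order. In moDC the shares were 9.85% higher and 2.21% lower in the shortest bin, and 1.93% and 11.8% in the longest. In MHCIIlow macrophages they were 9.85% and 3.27% in the shortest bin, and 2.54% and 12.7% in the longest, and in CD11b DC 4.59% and 2.57%, then 1.83% and 7.96%. In Langerhans cells, whose titles carry the same letter in both conditions, they were 7.61% and 4.85% in the shortest bin, and 6.51% and 10.8% in the longest. Of the 28 genes of oxidative phosphorylation, 3 (Cox5b, Ndufa1 and Cox6c) are among 38 genes (0.244% of those tested) whose values on all 15 arrays titled B, which hold no Langerhans cells, lie apart from those on all 33 other arrays. Ndufa2, Ndufa13 and Cox14, genes of the respiratory chain outside the list and named here after their values were seen, are among the 38 as well, and all 6 rose. Among the 1002 rises there were 17 such genes and among the 984 falls 19. Other members of that set named here are Stfa3, Sprr1b, Pycard, Icam1, Stat3, Bach1 and Gadd45b. For all of them, treatment and title letter cannot be told apart.

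**Figure D3:**
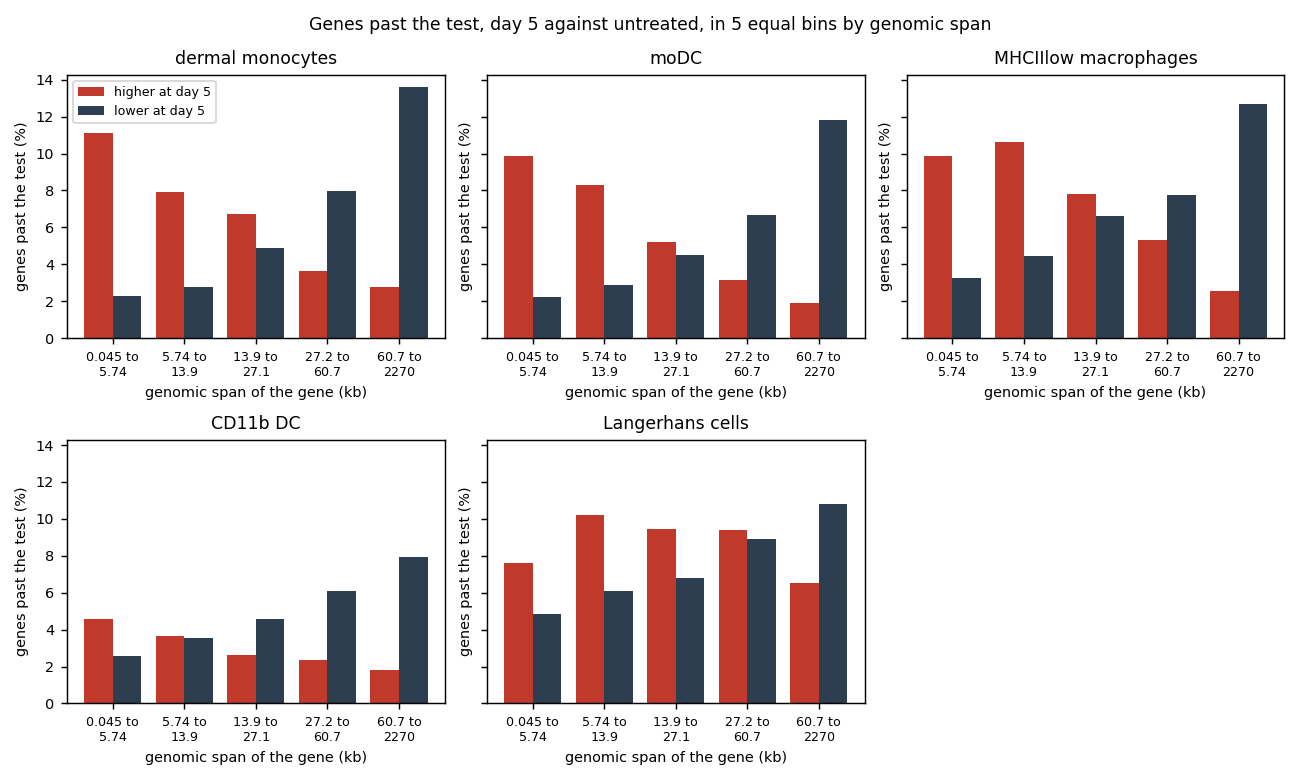
Share of genes past the test (vertical axis, %) in 5 bins of genes ordered by genomic span (horizontal axis, kb), higher at day 5 in red and lower in dark blue, for dermal monocytes, moDC, MHCIIlow macrophages, CD11b DC and Langerhans cells (1 panel each). In monocytes the share higher is 11.1% in the shortest bin and 2.76% in the longest, and the share lower 2.28% and 13.6%. In moDC the share higher is 9.85% and 1.93%, and in Langerhans cells 7.61% and 6.51%.

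Glycolysis and related genes rose in 5 of 29 cases and fell in none, with a median of 0.31. Tpi1, an enzyme of the middle of the pathway, was at 9.47, 9.82 and 9.47 in day 5 monocytes, against 8.90, 8.76 and 8.42 in untreated monocytes (change 0.89 ± 0.20, adjusted p = 0.00247). Ldha, which makes lactate, was at 9.54, 9.56 and 9.82, against 9.06, 8.86 and 8.82 (change 0.73 ± 0.16, adjusted p = 0.00199). Pgk1 and Aldoa rose by 0.73 and 0.69 (adjusted p = 0.00370 and 0.00569). All 4 had every day 5 array above every untreated array, as did 7 of the 29 genes and 13.5% of all genes tested. No gene of the list passed when only the monocyte arrays were fitted. Without untreated replicate 2, 4 genes rose and 2 fell. In Taldo1, of the pentose phosphate pathway, the rise of 0.52 passed in only 1 of 6 leave-outs (changes 0.46 to 0.63).

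Of 22 genes of cholesterol efflux and lipid handling, 3 fell, 1 rose and 18 did not pass (median -0.08). Abca1, the transporter that exports cholesterol from macrophages, was at 5.72, 6.25 and 6.29 at day 5, against 7.98, 7.86 and 8.01 in untreated cells (change -1.86 ± 0.26, adjusted p = 8.12e-06). Lpl, a lipase that frees fatty acids from lipoproteins, was at 6.16, 6.17 and 5.99, against 8.74, 7.93 and 7.99 (change -2.11 ± 0.33, adjusted p = 4.58e-05). In both genes the groups lay well apart, and both calls held in all leave-outs. The third fall was Gpnmb, whose groups overlapped and whose call was lost without untreated replicate 2 (change -1.30) or day 5 replicate 3 or 4 (changes -1.58 and -1.6), and the rise was Fabp5, a fatty acid carrier (change 1.01 ± 0.30, adjusted p = 0.0230; lost in 4 leave-outs, lowest change 0.92). Hpgd, which inactivates prostaglandins, was the only called gene among 21 lipid mediator enzymes. It was at 8.29, 8.16 and 7.10 at day 5, against 9.82, 9.72 and 9.53 (change -1.84 ± 0.25, adjusted p = 5.30e-06).

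Hmox1, which degrades haem, was at 10.57, 9.92 and 9.65 in day 5 monocytes, against 11.41, 11.40 and 11.49 in untreated monocytes (change -1.39 ± 0.31, adjusted p = 0.00248). Gclc, the catalytic subunit of the enzyme that limits glutathione synthesis, was at 5.12, 4.63 and 4.96, against 6.37, 6.59 and 6.33 (change -1.53 ± 0.27, adjusted p = 0.000245). In both, the untreated arrays lay close together and above every day 5 array. Oxidase subunits were among the rises. Cyba, a membrane subunit of the NADPH oxidase, rose by 0.84 ± 0.19 (adjusted p = 0.00281) and Ncf4, a cytosolic subunit, by 1.03 ± 0.24 (adjusted p = 0.00370). In the whole redox list 5 of 21 genes rose and 3 fell; the other rises were Mt1, Nos2 and Gpx1, and the third fall was Mt2. Gpx1, a peroxidase chosen after its values were seen, had a change of 0.43 ± 0.13 and lost its call in 4 leave-outs (lowest change 0.37). Bach1, a repressor of Hmox1, fell by 0.85 ± 0.21 (adjusted p = 0.00661), with 7.33, 7.51 and 8.03 against 8.45, 8.14 and 8.83; without untreated replicate 4 its change was -0.67 and did not pass.

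Of 28 integrins, selectin ligands and migration genes, 5 fell, where 6.31% of all genes did, none rose and 23 did not pass, and the median was -0.44. Itga4, the alpha chain of VLA-4 that binds vascular endothelium, was at 8.57, 8.57 and 8.79 in day 5 monocytes, against 10.06, 9.81 and 9.41 in untreated monocytes (change -1.11 ± 0.26, adjusted p = 0.00349). Itga5, a fibronectin receptor chain, was at 7.68, 7.78 and 8.06, against 9.09, 9.13 and 9.03 (change -1.24 ± 0.30, adjusted p = 0.00494). Icam1, a ligand of leukocyte integrins, was at 7.10, 7.43 and 7.90, against 8.61, 9.14 and 8.53 (change -1.28 ± 0.26, adjusted p = 0.00101). In these 3 every day 5 array lay below every untreated array, as in 11.6% of all genes tested. Without both untreated replicates closest to moDC, 1 gene of the list fell and 1 rose, with Itga4 at -0.77 and Itga5 at -1.19; 1 gene fell when only the monocyte arrays were fitted. Tspan33 and Itgav, the other 2 falls, were lost in 3 leave-outs each, with changes down to -0.53 and -0.66.

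Among extracellular proteases and inhibitors, 4 of 24 rose and 3 fell. Timp1, an inhibitor of matrix metalloproteases, was at 9.05, 8.92 and 8.78 at day 5, against 4.73, 7.90 and 5.73 in untreated cells (change 2.79 ± 0.57, adjusted p = 0.00106). The untreated array at 7.90 was replicate 2, and without it the change was 3.68. Mmp8, a collagenase also abundant in neutrophils, was at 9.69, 9.24 and 9.35, against 7.92, 8.62 and 8.00 (change 1.24 ± 0.32, adjusted p = 0.00921). Vcan, a proteoglycan typical of monocytes, was at 10.78, 10.46 and 10.47, against 9.74, 9.50 and 9.23 (change 1.08 ± 0.22, adjusted p = 0.00112). Adam8, a membrane protease chosen after its values were seen, was the fourth rise (0.68 ± 0.20), lost without day 5 replicate 2 or untreated replicate 2 (lowest change 0.58). Serpinb2, Adamts1 and Plat fell by 1.78, 1.56 and 1.01 on the log2 scale (adjusted p = 0.0147, 0.0209 and 0.0266), but none of these calls held without untreated replicate 2, where the changes were -1.27, -0.60 and -0.61.

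Genes of the unfolded protein response fell in 5 of 24 cases and rose in 1 (median -0.37). Atf4, the transcription factor of the integrated stress response, was at 9.14, 9.01 and 9.34 at day 5, against 9.97, 10.17 and 10.13 in untreated cells (change -0.93 ± 0.16, adjusted p = 0.000182). Hspa5, the chaperone BiP of the endoplasmic reticulum, was at 10.02, 9.84 and 10.16, against 10.43, 10.94 and 11.01 (change -0.79 ± 0.18, adjusted p = 0.00326). Both calls held in all leave-outs. The rise was Sec61b, a subunit of the translocation channel (change 0.54 ± 0.15, adjusted p = 0.0135; lost in 3 leave-outs, lowest change 0.43). Dnajb9, Herpud1 and Hsp90b1, the other falls, had changes of -0.77, -0.66 and -0.42, and each was lost without untreated replicate 2 (changes -0.62, -0.65 and -0.29).

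Transcripts that respond to tissue digestion moved in both directions. Of 29 immediate early and dissociation stress genes, 8 rose and 3 fell. Fos, at 10.89, 11.16 and 11.23 at day 5 against 10.06 and 11.01 on untreated replicates 1 and 2 and a value below both on replicate 4, rose by 0.74 ± 0.17 (adjusted p = 0.00279) although untreated replicate 2 overlapped the day 5 range. Ier5 was at 7.84, 8.15 and 8.17, against 7.31, 6.99 and 7.09 (change 0.92 ± 0.23, adjusted p = 0.00719). Hspb1, a small heat shock protein, fell by 1.31 on the log2 scale (adjusted p = 0.0297; lost in 4 leave-outs, changes -1.47 to -1.11). The count was 5 higher and 1 lower without untreated replicate 2, and 3 higher and none lower without both untreated replicates closest to moDC. The labels give dispase digestion at either of a pair of temperatures without saying which sample had which.

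Of 37 myeloid transcription factors 2 rose and 2 fell, shares near the 6.43% and 6.31% of all genes. Tfec, a myeloid relative of the lysosomal regulator TFEB, was at 8.46, 8.44 and 8.97 in day 5 monocytes, against 5.84, 5.89 and 7.00 in untreated monocytes (change 2.38 ± 0.39, adjusted p = 8.95e-05). Without both untreated replicates closest to moDC its change was 1.62 (adjusted p = 0.0542). Irf2 rose by 0.85 ± 0.24 (adjusted p = 0.0159; lost in 4 leave-outs, lowest change 0.73). Bcl6, a repressor of inflammatory genes, fell by 1.00 ± 0.28 (adjusted p = 0.0162; not without day 5 replicate 3 or untreated replicate 1, smallest change -0.75), and Stat3 fell by 0.92 ± 0.24 (adjusted p = 0.0103; not without day 5 replicate 4, change -0.79). Nr4a1, which marks patrolling monocytes, was at 10.69, 10.65 and 11.17 against 10.82, 11.12 and 10.64, and 1 of 12 genes of patrolling monocytes, Cd300e, rose.

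Of 35 macrophage core genes, 4 rose and 5 fell (median -0.12). The rises were Fcgr1, Tlr4, Mrc1 and Adgre1, and the falls Lpl, Gpnmb, Gas6, Axl and Siglec1. Adgre1, which encodes F4/80 and was chosen after its values were seen, had a change of 0.53 ± 0.18 and lost its call in 4 leave-outs (lowest change 0.37). Gas6 and Axl, a ligand and receptor for the uptake of dying cells, fell by 1.59 and 1.13 on the log2 scale (adjusted p = 0.0168 and 0.0446). Both were highest on untreated replicate 2, at 8.77 and 8.43, and without it the changes were -0.47 and -0.50 and did not pass. Without day 5 replicate 4 neither passed either (changes -1.42 and -1.03), nor Axl without day 5 replicate 3 (change -1.05). Of 31 conventional dendritic cell genes, 1 rose and 3 fell, the rise being Jaml, an adhesion molecule (6.37, 6.93 and 6.51 against 5.18, 4.80 and 4.24, change 1.86 ± 0.34, adjusted p = 0.000397). Of 26 genes of dendritic cell maturation, 1 rose and 1 fell in monocytes. In Langerhans cells 18 of them rose and none fell, where 8.64% of all genes rose and 7.49% fell. Csf1r was at 10.54, 10.41 and 10.63 against 10.68, 10.55 and 10.72 and did not pass.

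In the S phase list 2 of 29 rose, among them Rfc3, a subunit of the clamp loader (5.52, 5.92 and 6.59 against 5.44, 4.61 and 4.06, change 1.30 ± 0.30, adjusted p = 0.00350). In the G2 and M phase list 2 of 34 rose and 3 fell. Kif23, a kinesin of cell division, was at 5.18, 4.88 and 5.45 at day 5, against 6.60, 6.60 and 6.79 (change -1.49 ± 0.25, adjusted p = 0.000121). Cenpa, the centromeric histone, fell by 1.17 ± 0.26 (adjusted p = 0.00277), and Mki67 by 0.97 ± 0.30 (adjusted p = 0.0272; lost in 3 leave-outs, changes -1.13 to -0.79). In Langerhans cells 33 of the same 34 genes rose, where 8.64% of all genes did.

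Beyond the lists, the largest falls were in Krt15, Cldn1, Mir15a and Clca3a2, together with a group of small nucleolar RNAs. Nfat5, a transcription factor of the osmotic stress response, was at 5.64, 6.02 and 5.84 in day 5 monocytes, against 7.83, 7.88 and 8.30 in untreated monocytes (change -2.17 ± 0.35, adjusted p = 7.39e-05). No day 5 array came near the untreated range. Snora70, Snord95, Snora75 and Snora7a fell by 2.30 to 2.40, but their untreated values spread widely, from 5.18 to 9.55 for Snora70, and the calls of Snord95 and Snora7a were lost in 4 of 6 leave-outs, those of Snora75 in 2 and that of Snora70 without untreated replicate 4 (change -1.03). Snord104 rose by 3.82 ± 0.78 (adjusted p = 0.00119), with 8.93, 8.86 and 9.72 against 8.19, 4.36 and 3.50. The leading 12 rises also held Lrg1, a secreted glycoprotein (8.79, 9.23 and 7.57 against 6.35, 5.34 and 5.52, change 2.79 ± 0.43), and Sprr1b.

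**Figure D4:**
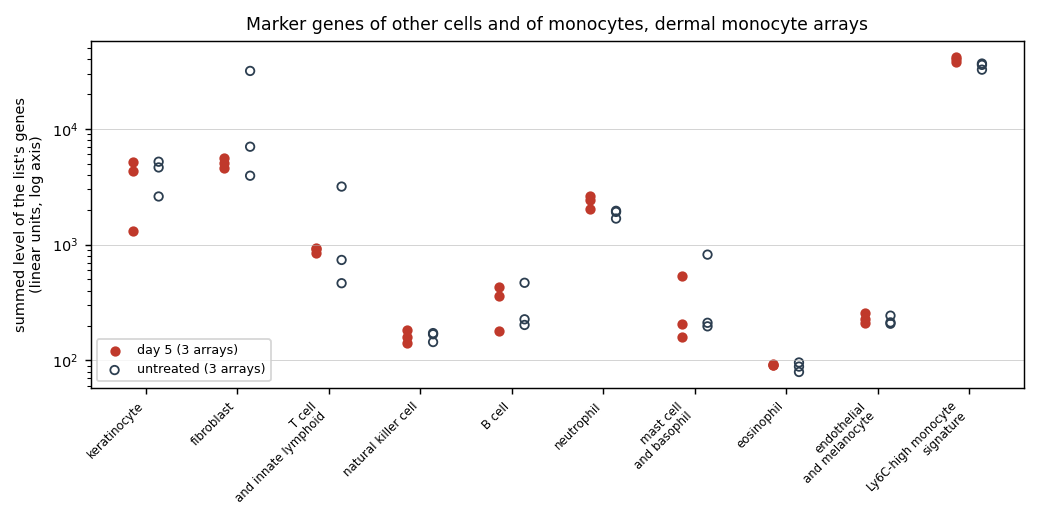
Summed level of marker genes on each monocyte array (vertical axis, linear units on a log scale), for 9 other cell types and for the Ly6C-high monocyte signature, with day 5 as filled red points and untreated as open points (3 arrays each). Untreated replicate 2 stands out for fibroblast and T cell markers, and day 5 replicate 4 for keratinocyte markers.

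RNA of other skin cells was measured on the same arrays. In bulk samples, fewer cells of a type and less RNA per cell cannot be told apart. Of 26 keratinocyte markers, 2 rose and 5 fell. Without untreated replicate 2, 2 rose and 1 fell, and 1 rose and none fell when only the monocyte arrays were fitted. Krt15, a keratin of basal and hair follicle cells, was at 6.43, 5.83 and 4.03 at day 5, against 8.08, 8.38 and 8.55 in untreated samples (change -2.91 ± 0.57, adjusted p = 0.000665). It also fell in Langerhans cells (change -3.88) and moDC (change -3.95). Sprr1b, a cornified envelope protein, was at 7.38, 8.65 and 6.73, against 4.36, 4.79 and 5.08 (change 2.84 ± 0.59, adjusted p = 0.00137), and without both untreated replicates closest to moDC it did not pass (adjusted p = 0.0627). Krt5 and Krt14, the basal keratin pair, were at 10.31, 9.40 and 7.92 against 9.43, 9.83 and 10.64, and at 9.11, 9.05 and 7.23 against 7.87, 8.13 and 8.74, and neither passed. Summed keratinocyte levels were 1308 to 5134 at day 5 and 2604 to 5197 in untreated samples. Cldn1, a tight junction gene of epidermis and of Langerhans cells (log2 11.4 and 11.7 on average in day 5 and untreated Langerhans cells), fell in monocytes by 2.80 ± 0.56 (adjusted p = 0.000997).

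Fibroblast markers fell in 4 of 17 cases and rose in none (median -0.80), and this rested on 1 array. Their summed level was 4596 to 5569 at day 5, and 3934, 31590 and 7003 on untreated replicates 1, 2 and 4. Col1a2 was at 6.53, 6.63 and 6.42 at day 5, against 6.72, 10.03 and 7.90 (change -1.69 ± 0.43, adjusted p = 0.00812). Without untreated replicate 2 no fibroblast gene was lower and 1 was higher; the change of Col1a2 was then -0.78. That array also had the highest T cell and innate lymphoid sum, 3171, through Thy1 at 11.46. The sum was 464.4 and 737.4 on the other untreated arrays and 848.8 to 927.6 at day 5. Cd3d lay at 2.86 to 3.83 on all 6 arrays, but other genes of the list reached higher levels on single arrays. Cd3e was at 6.225 and Il7r at 6.927 on day 5 replicate 4, Cd2 at 6.295 on day 5 replicate 3 and Lat at 6.349 on untreated replicate 4. Of the neutrophil markers, Ly6g and Ltf were below the detection threshold on all 6 arrays, Mpo, Ngp, Camp and Retnlg lay between 3.55 and 4.49, and Elane reached 5.00 on 1 day 5 array. Cd177, which the Ly6C-high monocyte signature also holds, was at 7.53 to 8.24 on the 6 arrays and Il1r2 at 9.29 to 10.25, and neither passed. Of the 13 neutrophil markers tested 2 rose, Mmp8 and Cxcr2. The summed level of 15 neutrophil markers, with Ly6g and Ltf, was 2024 to 2616 at day 5 and 1679 to 1958 in untreated samples. Il1r2, Mmp8, Csf3r and Cd177 had the highest levels in that sum. Csf3r was at 8.55, 8.37 and 8.17 against 8.26, 8.13 and 8.10. In limma none of 14 T cell and innate lymphoid, 7 B cell, 7 mast cell and 5 eosinophil markers passed. Of these, 4, 2, 0 and 0 had an unadjusted p under 0.05, as did 4180 of all 15591 genes tested. The natural killer gene Eomes and the endothelial genes Cldn5 and Emcn passed with changes of 0.36, 0.39 and -0.64. Eomes was lost in 5 leave-outs (lowest change 0.26), and Cldn5 and Emcn in 4 each (smallest changes 0.26 and -0.38).

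The genes called in monocytes were looked up in the other dermal populations and in Langerhans cells. At day 5, 1761 genes (11.3%) passed in moDC, 2208 (14.2%) in MHCIIlow macrophages, 1244 (7.98%) in CD11b DC and 2514 (16.1%) in Langerhans cells, each against its own untreated arrays. Of all genes, 5.68% rose and 5.61% fell in moDC, 7.22% and 6.95% in MHCIIlow macrophages, 3.01% and 4.96% in CD11b DC, and 8.64% and 7.49% in Langerhans cells. No array is shared between these comparisons. Of the 1002 genes that rose in monocytes, 448 (44.7%) also rose in moDC and 401 (40%) in MHCIIlow macrophages, but 172 (17.2%) in CD11b DC and 225 (22.5%) in Langerhans cells. Of the 984 that fell, 403 (41%) fell in moDC, 348 (35.4%) in MHCIIlow macrophages, 225 (22.9%) in CD11b DC and 163 (16.6%) in Langerhans cells. S100a8, S100a9 and Stfa3 rose in all 5 populations, with changes of 3.76 to 7.55, which is a description of these contrasts and not a test between them. All untreated dermal groups carry the title letter B and all day 5 dermal groups F. For genes shared between dermal populations, treatment and title letter therefore cannot be told apart. In the differences below the letters balance between dermal populations.

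**Figure D5:**
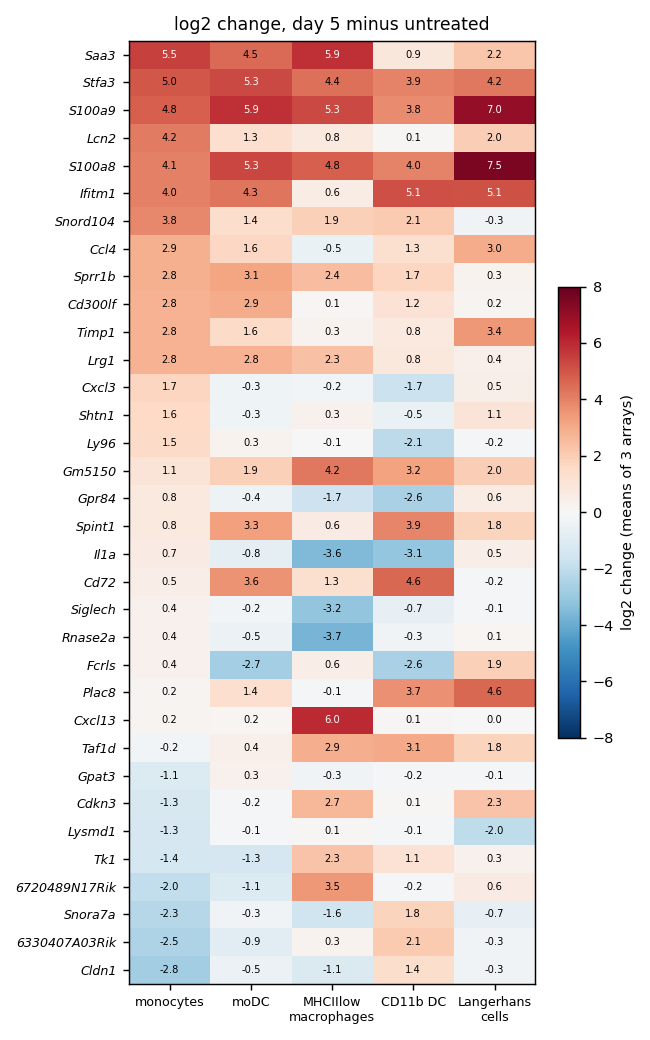
Log2 change, day 5 minus untreated (colour and number, means of 3 arrays per group), in monocytes, moDC, MHCIIlow macrophages, CD11b DC and Langerhans cells (columns), for the 12 largest monocyte rises and the genes whose monocyte response differed most from that of other dermal populations (rows). Lcn2 changed by 4.16 in monocytes and by 0.07 to 1.95 elsewhere, and Cxcl13 by 5.99 in MHCIIlow macrophages and by 0.04 to 0.20 in the other 4 columns.

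The difference between responses was tested directly. Against moDC, 6 genes (0.0385%) passed, 2 with the higher response in monocytes (0.0128%) and 4 with the lower (0.0257%). In the same limma test 875 of all 15591 genes had an unadjusted p under 0.05. Where no response differs, a share of about 0.05 lies under that threshold. Against MHCIIlow macrophages 205 genes (1.31%) passed, 125 higher in monocytes (0.802%) and 80 lower (0.513%). Against CD11b DC 246 (1.58%) passed, 135 higher (0.866%) and 111 lower (0.712%). Against the mean of these 3 populations 84 (0.539%) passed, 48 higher (0.308%) and 36 lower (0.231%). The count against moDC was 125 without both untreated monocyte replicates that resembled moDC, with 1 untreated monocyte array left.

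Lcn2 averaged 8.14 ± 0.91 in day 5 monocytes and 3.98 ± 0.08 in untreated monocytes (SD, n = 3 each), against 4.73 ± 0.34 in day 5 and 3.97 ± 0.09 in untreated MHCIIlow macrophages. The monocyte change exceeded that of MHCIIlow macrophages by 3.40 ± 0.69 (adjusted p = 0.00472) and that of CD11b DC by 4.09 ± 0.69 (adjusted p = 0.000637). Against moDC, where Lcn2 averaged 5.59 ± 1.02 at day 5 and 4.28 ± 0.48 untreated, the difference of 2.85 ± 0.69 did not pass (adjusted p = 0.158). Saa3 also rose in moDC (change 4.51) and MHCIIlow macrophages (change 5.87), while in CD11b DC its change was 0.91, and that difference from monocytes was 4.56 ± 0.89 (adjusted p = 0.00321). Cxcl3, which rose in monocytes, had changes of -0.34 in moDC, -0.22 in MHCIIlow macrophages and -1.72 in CD11b DC. The difference passed against MHCIIlow macrophages (1.94 ± 0.47, adjusted p = 0.0259) and CD11b DC (3.44 ± 0.47, adjusted p = 3.47e-05), and not against moDC (2.06 ± 0.47, adjusted p = 0.131).

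Il1a, which encodes interleukin 1 alpha, fell in MHCIIlow macrophages and CD11b DC and did not pass in monocytes. It was at 7.64, 7.97 and 7.94 in day 5 monocytes, against 6.98, 7.76 and 6.83 in untreated monocytes (adjusted p = 0.456). In MHCIIlow macrophages it averaged 5.33 ± 1.02 at day 5 and 8.89 ± 0.46 untreated (SD, n = 3 each). The difference in response was 4.21 ± 0.75 against these macrophages (adjusted p = 0.00108). Cxcl13, a chemokine that draws in B cells, rose in MHCIIlow macrophages: it was at 3.79 to 4.18 in day 5 monocytes, against 3.68 to 3.88 in untreated ones, and in MHCIIlow macrophages averaged 10.7 ± 0.20 at day 5 and 4.66 ± 0.95 untreated. The difference was -5.80 ± 0.38 (adjusted p = 3.57e-13). Ifitm1 rose in monocytes, moDC, CD11b DC and Langerhans cells by 4.02 to 5.13, and had a change of 0.58 in MHCIIlow macrophages, a difference of 3.43 ± 0.70 (adjusted p = 0.00478).

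Few genes passed the test for a response that differed between monocytes and moDC, 6 in the main fit and 44 without untreated monocyte replicate 2. Cd72, an inhibitory receptor also found on B cells, was at 5.76, 5.63 and 4.06 in day 5 monocytes, against 4.64, 4.58 and 4.60 in untreated monocytes, while in moDC it averaged 8.69 ± 0.03 at day 5 and 5.09 ± 0.75 untreated. The difference in response was -3.05 ± 0.58 (adjusted p = 0.0239; not without day 5 replicate 4 or untreated replicate 1, over all leave-outs -3.36 to -2.51). Fcrls, a marker of macrophages, stayed near the detection threshold in monocytes and fell in moDC (5.26 ± 0.11 at day 5 and 7.96 ± 0.28 untreated), a difference of 3.05 ± 0.46 (adjusted p = 0.00142). Shtn1, a regulator of the cytoskeleton in neurons, rose in monocytes (7.02, 6.58 and 6.87 against 5.01, 5.58 and 5.04, change 1.61 ± 0.23) and changed by -0.34 in moDC, a difference of 1.95 ± 0.32 (adjusted p = 0.00493). The differences of Fcrls and Shtn1 held in all 6 leave-outs.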

How the data were processed

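RNA from sorted cells (1 to 20 ng) was amplified over 2 rounds and hybridised, per the labels' protocols. The authors deposited log2 values that were background-corrected, normalised and summarised by RMA, per the submitters' processing notes; software versions are not given in the sources used here. Precision depends on having 3 arrays in a group.

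Of 35556 probe sets, 21789 carried 1 gene symbol and 1621 several. Probe sets above the 40th percentile of signal (log2 3.77) on at least 3 arrays were kept, and the brightest stood for its gene (15591 genes). In limma 3.58.1 (R 4.3.3), 1 mean for each of 16 groups was fitted over 48 arrays, with contrasts for day 5 minus untreated and for differences between responses, and Benjamini-Hochberg adjustment over all genes. The step was tested on simulated data. Day 5 and untreated monocyte arrays with the same title digit correlated weakly (correlations of deviations 0.106 and 0.0321). Monocyte arrays and those of other dermal populations with the same letter and digit did so at -0.0627 to 0.192. No block was used in the main fit.

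Genes named are the 12 largest rises and falls without overlap, up to 6 called and 2 uncalled genes of each list, all members of the sort gate and other-cell lists, and the 5 largest differences each way; others are said to be chosen later. Members and lists were chosen with earlier results of these data known. Alternatives covered the filter, normalisation, samples fitted, weights, block and single arrays.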

Additional observations from a re-analysis of the deposited data

Results flagged for a closer look

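The response to imiquimod at day 5 differed between monocytes and another dermal population, by the test of the difference itself, for 6 genes against moDC, 205 against MHCIIlow macrophages, 246 against CD11b DC and 84 against the mean of all 3. Each value below is the log2 change in monocytes minus the log2 change in the other population.

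Against moDC, Fcrls (3.05) and Shtn1 (1.95) had the higher response in monocytes, and Cd72 (-3.05), Spint1 (-2.48), Gpat3 (-1.38) and Lysmd1 (-1.24) the lower one. Cd72, Spint1, Gpat3 and Lysmd1 each lost the call when 1 or more single arrays were left out. Against MHCIIlow macrophages, Il1a (4.21), Rnase2a (4.09), Siglech (3.54), Ifitm1 (3.43) and Lcn2 (3.40) were on the higher side, and Cxcl13 (-5.80), 6720489N17Rik (-5.45), Cdkn3 (-3.91), Tk1 (-3.71) and Gm5150 (-3.15) on the lower. The call of 6720489N17Rik held in 2 of the 6 refits without 1 monocyte array, and that of Gm5150 in 4. Cdkn3 and Tk1 are genes of dividing cells.

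Against CD11b DC, the higher responses were in Saa3 (4.56), Lcn2 (4.09), Il1a (3.73), Ly96 (3.60), which encodes the co-receptor MD-2 of TLR4, and Cxcl3 (3.44). The lower ones were in 6330407A03Rik (-4.62), Cldn1 (-4.24), Cd72 (-4.08), Snora7a (-4.06) and Plac8 (-3.46), the last 2 called in 5 and 4 of the 6 refits. Against the mean of the 3 populations, Lcn2 (3.45), Il1a (3.13), Cxcl3 (2.48), Gpr84 (2.36), a receptor for medium-chain fatty acids, and Ccl4 (2.06) were higher, and 6330407A03Rik (-2.98), Cldn1 (-2.75), Cd72 (-2.63), Taf1d (-2.33) and Cdkn3 (-2.12) lower. Ccl4 and Gpr84 were each called in 1 of the 6 refits, 6330407A03Rik, Cldn1 and Taf1d in 2 each, and Cdkn3 in 5; their differences then ranged from 1.88 to 2.27 for Ccl4, 1.88 to 2.91 for Gpr84, -3.51 to -2.63 for 6330407A03Rik, -3.43 to -2.31 for Cldn1 and -2.47 to -2.10 for Taf1d.

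Outside the genes with a single symbol, 911 of 8259 probe sets with no gene symbol (11%) passed the same test between day 5 and untreated monocytes.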

How the results depend on the processing

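The count of 1986 genes was 1313 without both untreated replicates closest to moDC (1 untreated array left, assumed to vary as the other groups do), 1282 with array weights, 277 when only the 6 monocyte arrays were fitted, and 1196 (without day 5 replicate 3) to 1917 over the single leave-outs. The at least 2-fold count of 796 was 246 with only the groups compared. For differences between responses, only the groups compared gave 1 gene against moDC, 127 against MHCIIlow macrophages and 117 against CD11b DC, and array weights gave 1 against moDC and 42 against the mean. Without both untreated replicates closest to moDC these counts were 125, 320, 465 and 296. The authors' shorter table, with fewer genes tested, gave 326 against MHCIIlow macrophages and 142 against the mean. Single leave-outs ranged from 3 to 44 against moDC, 130 to 275 against MHCIIlow macrophages, 177 to 343 against CD11b DC and 32 to 143 against the mean. The causes were not tested. Fap, a fibroblast marker, turned to 0.0419 without both untreated replicates. Title digits as a replicate block gave 2003 genes, and title letter with digit as a random replicate block 1997. The random block gave 6 genes against moDC, 251 against MHCIIlow macrophages, 287 against CD11b DC and 86 against the mean. The pairing comes from title digits that the labels do not explain. Over all alternatives, changes of named genes between day 5 and untreated had the same result in 5437 cases. They lost the call in 537, gained it in 116 and turned in 1. The same result includes genes called in neither fit, whatever their direction. It also includes 328 cases from a repeat on identical deposited values. With only the groups compared, 113 named genes lost the call.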

Other observations

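Of 29 lysosomal hydrolases and cathepsins 1 fell and none rose in day 5 monocytes, and of 26 alternative activation genes 2 rose and none fell, beside 6.43% of all genes higher and 6.31% lower. Of 20 cholesterol synthesis genes 2 rose and none fell, with a median change of 0.31. In limma 8 of the 20 had an unadjusted p under 0.05, as did 4180 of all 15591 genes tested. The count of rises was 6 after quantile normalisation, 4 after centring on the median and 0 without untreated replicate 2. Iron and haem genes rose in 3 of 19 cases and fell in 2, with Lcn2 and Hmox1 among them.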
